A study of Homo sapiens with 28 samples.

Results

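The transcriptional response of HL-60 cells to Pinometostat was read from 4 of the 28 arrays of the series, the treated and control arrays of this line with the replicate numbers 1 and 2. HL-60 is an established promyelocytic leukemia line without MLL rearrangement (MLL-r). Treated cells were kept for 8 days in 1 µM Pinometostat, and control cells had 0.01% DMSO, the vehicle. The series holds 7 acute myeloid leukemia (AML) lines with 2 arrays per line and condition, 4 lines with MLL-r (THP-1, MOLM-13, MV4-11 and NOMO-1) and 3 non-MLL-r lines (OCI-AML3, HL-60 and U-937), and asks which genes move when DOT1L is inhibited and whether this depends on MLL-r. The sources used here do not say whether the 2 replicates came from separate cultures, so the p-values measure the spread between these samples, which may be technical.

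DOT1L is the methyltransferase that places H3K79 methylation over the bodies of transcribed genes. MLL fusion proteins recruit it to their targets, where the mark accompanies high transcription of HOXA genes and MEIS1, and Pinometostat blocks the enzyme by competing with its methyl donor. HL-60 cells resemble promyelocytes, the stage of granulocyte development at which the proteins of the primary granules are made, and they are known for maturing toward granulocytes or monocytes under agents such as retinoic acid.

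Values are log2 signals, so a difference of 1 is a doubling. Over 17687 named genes the 4 HL-60 arrays had medians between 5.69 and 5.78, and array signals have no true zero. Of the markers used to check the line, MPO, the myeloperoxidase of primary granules, had signals of 12.06 and 11.81 in treated and 12.35 and 11.93 in control HL-60 cells, with a control mean above that of each of the other 6 lines (5.00 to 8.93). MYC ranked 2 of 7 lines. PRTN3 and CTSG each ranked 5 of 7 in control HL-60 cells, MS4A3 ranked 6, and AZU1 and CLEC11A were lowest of the 7 lines, so the markers of promyelocytes did not all rank high in this line. ELANE and CD33 were not analysed here. The summed log2 signal of the 13 eosinophil, basophil and mast cell markers was 63.8 to 64.0 on treated and 63.8 to 65.8 on control arrays, and that of the 17 T and NK cell markers was 72.2 to 73.0 on treated and 70.7 to 73.1 on control arrays.

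Few genes were called in HL-60. A gene was called when limma gave an unadjusted p under 0.05 and the difference was at least 1 on the log2 scale. The thresholds follow the study, with its fold change read on the log2 scale, and the fit leaves out the pairing of arrays that the study describes. By this rule 46 genes were higher (0.260% of the genes tested) and 31 were lower (0.175%) in treated cells. After Benjamini-Hochberg adjustment limma called 0 genes, with 256 genes (1.45%) at an unadjusted p under 0.05, or 779 (4.40%) when the replicate number was a block. Both shares, from the 4 HL-60 arrays, lay below the share that this threshold would give if no gene changed. These counts do not by themselves show a response. When all 28 arrays shared 1 estimate of the spread, 1 gene passed the adjusted threshold, MS4A6A. All 46 and all 31 called genes had groups that did not overlap and the same sign in both replicate pairs, a pattern that the call itself favours, and over all genes 11.4% had treated signals above and 11.3% below both controls. Most called genes had low signals: 37 of the 46 and 27 of the 31 had a mean signal under 5.72, the median gene of HL-60.

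The 2 replicate pairs shared little across genes, and the agreement of the called genes follows in part from how they were chosen. Across genes, the treated minus control difference of pair 1 correlated with that of pair 2 at r = -0.016 in HL-60, against 0.23 in U-937, 0.27 in MOLM-13, 0.46 in OCI-AML3, 0.52 in THP-1, 0.59 in MV4-11 and 0.71 in NOMO-1. Genes are not independent replicates, so these values are a description. The sign agreed for 48.9% of genes in HL-60 and for 56.3% to 66.4% in the other lines. In pair 1 the difference reached 1 in either direction for 245 HL-60 genes and in pair 2 for 1080, and 16 genes did so in the same direction in both, 11 of them upward, while 9 did so in opposite directions. The control arrays of HL-60 differed from each other by 0.62 (root mean square over genes) and the treated arrays by 0.57.

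**Figure D1:**
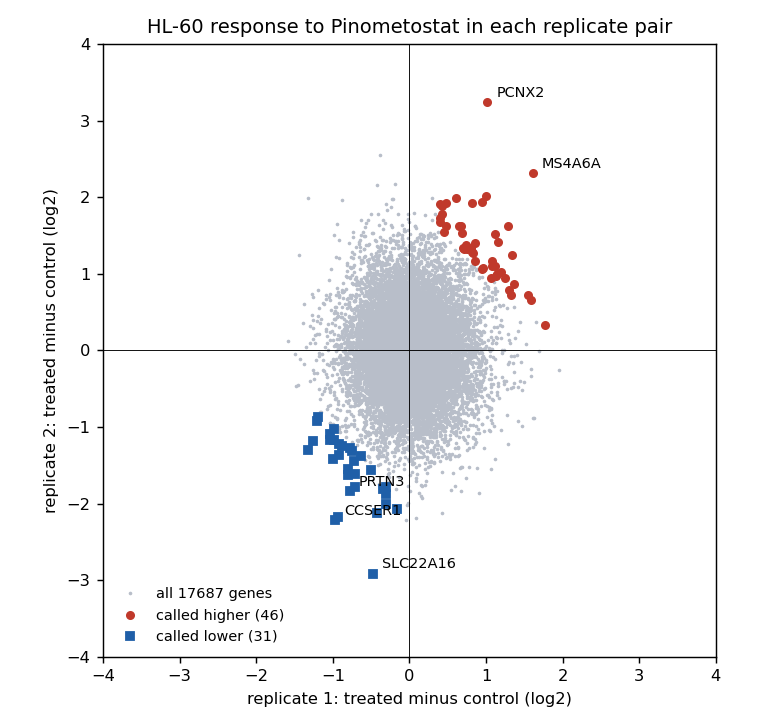
Treated minus control difference (log2) in replicate pair 1 (x axis) and pair 2 (y axis) for each of 17687 genes in HL-60, with the 46 genes called higher as red circles and the 31 called lower as blue squares. The cloud has no tilt (r = -0.016) and is taller than wide, with a standard deviation of 0.373 in pair 1 and 0.515 in pair 2.

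MS4A6A, a member of a family of membrane proteins of monocytes and macrophages, had the smallest p of the HL-60 comparison. Its signals were 6.19 and 6.34 in treated and 4.58 and 4.02 in control cells. Both treated arrays stood clear of both controls, and the difference was 1.96 ± 0.35 (SE, n = 2 per group), or 3.89-fold. With the spread of all 28 arrays its limma adjusted p was 0.0166, and 0.00159 when the replicate number was a block, a fit in which RAB7B also passed (0.0297). Leaving out any single HL-60 array did not end its call. The gene lies on chromosome 11 from 60171607 to 60184666 on the minus strand (GRCh38.p14), and MS4A6A was also called higher in 2 of the other 6 lines.

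PRTN3, which encodes a serine protease of the primary granules of neutrophils, was called lower in HL-60 and also responded differently there than in the other lines. Its signals were 6.74 and 6.005 in treated and 7.52 and 7.84 in control cells. The difference was -1.31 ± 0.37 (SE, n = 2 per group), and without treated replicate 2 it was -0.94 and no longer called. The gene lies on the plus strand of chromosome 19, from 840999 to 848175.

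The 250 bases before the RefSeq start of these 2 genes are shown, MS4A6A at chr11:60184667-60184916 on the minus strand and PRTN3 at chr19:840749-840998 on the plus strand. The first had the smallest p of the HL-60 comparison, and the second is the called gene with the widest gap to U-937. Capitals mark matches, on either strand, to GAGGAA, the core bound by the myeloid factor PU.1, and to TTGCNNAA, a form of the C/EBP site.
MS4A6A: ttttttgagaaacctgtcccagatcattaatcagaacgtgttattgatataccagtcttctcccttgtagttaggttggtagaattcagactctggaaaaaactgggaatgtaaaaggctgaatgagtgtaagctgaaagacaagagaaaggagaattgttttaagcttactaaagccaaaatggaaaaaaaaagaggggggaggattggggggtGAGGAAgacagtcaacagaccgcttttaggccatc
PRTN3: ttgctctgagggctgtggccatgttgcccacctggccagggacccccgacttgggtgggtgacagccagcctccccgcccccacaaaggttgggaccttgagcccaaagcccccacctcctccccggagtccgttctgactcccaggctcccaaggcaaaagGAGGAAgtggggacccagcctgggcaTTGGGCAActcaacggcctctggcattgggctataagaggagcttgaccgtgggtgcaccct
GAGGAA occurs once in each window on the printed strand, and TTGCNNAA once in PRTN3 on the other strand. Of 35116 RefSeq promoter windows of this length, 23.6% hold GAGGAA and 9.05% TTGCNNAA. Neither window holds TGTGGT, the RUNX core, which 11% of windows hold, nor the AP-1 site TGANTCA, which 6.57% hold. A match is a string of letters and not a measured binding site.

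Among the genes called higher, PCNX2 had the largest difference, with 6.02 and 6.52 in treated and 5.00 and 3.27 in control cells. The control arrays lay further apart than the treated arrays, and the difference of 2.13 ± 0.53 was 1.27 without control replicate 2, still called. RAB7B, a small GTPase of lysosomal traffic, had 8.43 and 8.96 in treated and 7.27 and 7.54 in control cells, a difference of 1.29 ± 0.35. PREX1, which activates Rac in neutrophils, had 6.69 and 7.66 in treated and 5.87 and 5.73 in control cells, a difference of 1.37 ± 0.39. Both genes kept a clear gap between the groups, although each lost its call without treated replicate 2. MCTP2 had 4.91 and 4.89 in treated and 3.63 and 3.27 in control cells, a difference of 1.45 ± 0.33. CD38, the NAD-consuming surface enzyme that retinoic acid is known to induce in HL-60 cells, had 5.31 and 5.29 in treated and 4.07 and 4.34 in control cells, with close replicates in both groups and a difference of 1.10 ± 0.33 that was 0.96 and not called without control replicate 1. LAT, a signalling adaptor best known from T cells, rose by 1.00 ± 0.35, and was not called without control replicate 1 (0.83) or treated replicate 2 (0.78).

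SGMS2, a sphingomyelin synthase, rose by 1.44, ACSM3, a mitochondrial acyl-CoA synthetase, by 1.29, and AK5, an adenylate kinase, by 1.14. AK5 had 5.42 and 4.88 in treated against 3.87 and 4.16 in control cells. APOBEC3G, a cytidine deaminase that restricts retroviruses, had 6.97 and 6.66 in treated and 5.97 and 4.65 in control cells, and RBM47, an RNA-binding protein, rose by 1.15. Among the 15 largest rises, the calls of APOBEC3G, SGMS2, GKAP1, ACSM3, HSF2BP, STK32C, RBM47 and EEIG2 were lost without control replicate 2, with differences of 0.43 (HSF2BP) to 0.93 (EEIG2). Without treated replicate 2, PREX1, RAB7B, STK32C and EEIG2 had differences of 0.89 (PREX1 and EEIG2) to 1.02 (RAB7B) and were not called, and AK5 was not called without treated replicate 1 (0.87) or control replicate 1 (0.99).

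**Figure D2:**
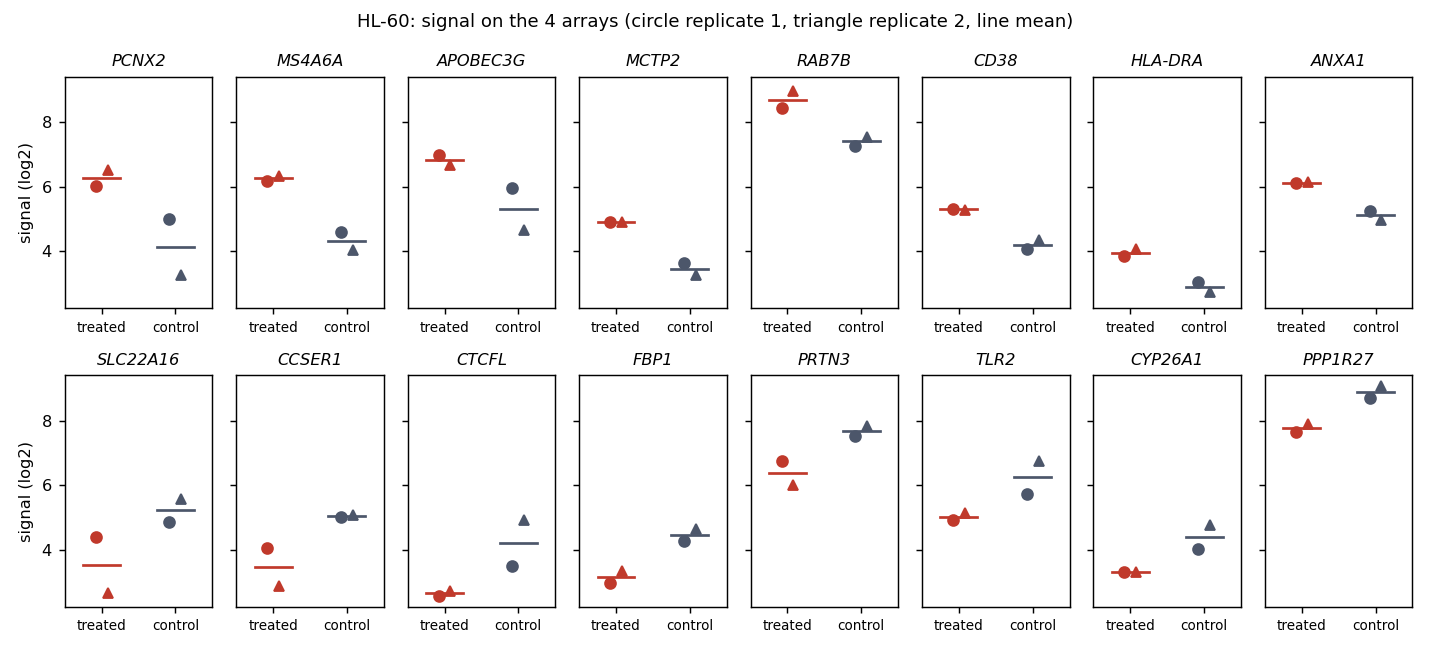
Log2 signal on each of the 4 HL-60 arrays for 16 called genes, treated left and control right, with replicate 1 as a circle, replicate 2 as a triangle and the mean as a line. In each panel the treated and control arrays do not overlap, and the distance between replicates is widest in the controls of PCNX2 and CTCFL and in the treated arrays of SLC22A16.

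Among the genes called lower, SLC22A16, a carnitine transporter, had the largest fall, with 4.39 and 2.65 in treated and 4.86 and 5.56 in control cells. Treated replicate 2 was far below replicate 1, and without it the difference of -1.69 ± 0.55 was -0.82 and not called. CCSER1 had 4.04 and 2.86 in treated and 5.00 and 5.08 in control cells, a difference of -1.59 ± 0.42. FBP1, the fructose bisphosphatase of gluconeogenesis, had 2.95 and 3.35 in treated and 4.28 and 4.65 in control cells, a difference of -1.32 ± 0.35 that stayed called without any single array. CTCFL, a germ-cell relative of CTCF, fell by 1.55 and ODF1, a protein of the sperm tail, by 1.27, both at signals near the low end of the scale.

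TLR2, the receptor for bacterial lipoproteins on monocytes and neutrophils, fell by 1.22 ± 0.41. It had 4.92 and 5.13 in treated against 5.72 and 6.76 in control cells, and without control replicate 2 the difference was -0.70 and not called. CYP26A1, the enzyme that degrades retinoic acid, had 3.29 and 3.32 in treated and 4.01 and 4.76 in control cells, a difference of -1.08 ± 0.37 that was -0.71 and not called without control replicate 2. LRRCC1, a centrosomal protein, fell by 1.23 and LAMP5 by 1.25. Among the 15 largest falls, without treated replicate 2 the calls of SLC22A16, CCSER1, PRTN3, ODF1, LAMP5, BTN2A1, PDE12, MFAP5 and GALNT8 were lost, with differences from -1.03 (MFAP5) to -0.47 (GALNT8), and without control replicate 2 those of CTCFL, ODF1, TLR2, TSPAN16, MFAP5, RNLS and GALNT8, from -0.84 (CTCFL) to -0.43 (MFAP5).

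Of the 46 higher genes, 27 (58.7%) were called in none of the other 6 lines, against 87.1% of all genes. At least 1 of those lines called 15 of the 46 (32.6%) higher, against 8.20% of all genes, and 7 (15.2%) lower, against 5.22%. At least 3 called 3 of the 46 (6.52%) higher, against 0.837%, namely PCNX2, ANXA1 and HLA-DRA. Of the 31 lower genes, 24 (77.4%) were called in no other line, 4 (12.9%) were lower and 3 (9.68%) higher in at least 1, and 0 were lower in at least 3, against 0.102% of all genes. U-937, the other line without MLL-r whose growth the study describes as unaffected, called 1 of the 46 higher (0.300% of all genes in U-937) and 0 of the 31 lower (0.113%). OCI-AML3 called 5 of the 46 higher (1.90% of all genes there) and 1 of the 31 lower (0.537%). Among the lines with MLL-r, MV4-11 called 7 of the 46 higher (2.39% of all genes) and 1 of the 31 lower (1.52%), and NOMO-1 called 4 of each (4.75% and 3.12%). MOLM-13 called 3 of the 46 higher (0.859%) and THP-1 4 (1.72%), and both called 0 of the 31 lower (0.0848% and 0.718%).

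ANXA1, an anti-inflammatory phospholipid-binding protein of myeloid cells, had 6.11 and 6.14 in treated and 5.25 and 4.96 in control HL-60 cells, a difference of 1.01 ± 0.33, against a mean difference of 1.29 over the other 6 lines. HLA-DRA, a chain of the MHC class II molecule HLA-DR, had 3.84 and 4.07 in treated and 3.04 and 2.74 in control HL-60 cells, a difference of 1.07 ± 0.33, where the other lines averaged 1.52. For neither gene did the gap between HL-60 and the mean of the other lines pass the adjusted threshold (limma, -0.28 ± 0.27 for ANXA1 and -0.46 ± 0.32 for HLA-DRA, SE). Both calls were lost without control replicate 2 (0.87 and 0.91) or without treated replicate 2 (1.00 and 0.95), and that of ANXA1 also without treated replicate 1.

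The genes called together in the other lines had smaller differences in HL-60. Outside HL-60, 143 genes were called higher in at least 3 of the 6 lines and lower in none, a choice in which the HL-60 arrays took no part. In HL-60 their median difference was 0.086, with 85 of 143 (59.4%) above 0 and 3 (2.10%) called higher, against a median of 0.000486, 50.1% above 0 and 0.260% called higher over all genes. When NOMO-1 took no part in the choice, 82 genes were left, with a median of 0.21 in HL-60 and 54 above 0. Treated signals lay above both controls for 36 of the 143 (25.2%, against 11.4% of all genes) and below both for 12 (8.39%, against 11.3%). When each of the other lines was held out in the same way, the medians ran from 0.22 in U-937 to 1.54 in NOMO-1, and 12.8% (U-937) to 66.3% (NOMO-1) of the genes were called higher in the line held out. Among the 143 genes the control HL-60 cells had the lowest signal of the 7 lines for 40 (28%), against 18.5% over all genes. The 17 genes called lower in at least 3 of the other lines had a median of 0.081 in HL-60, and 0 of them were called by limma, with 1 at an unadjusted p under 0.05 (ANXA2R, -0.92, named after its value was seen).

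**Figure D3:**
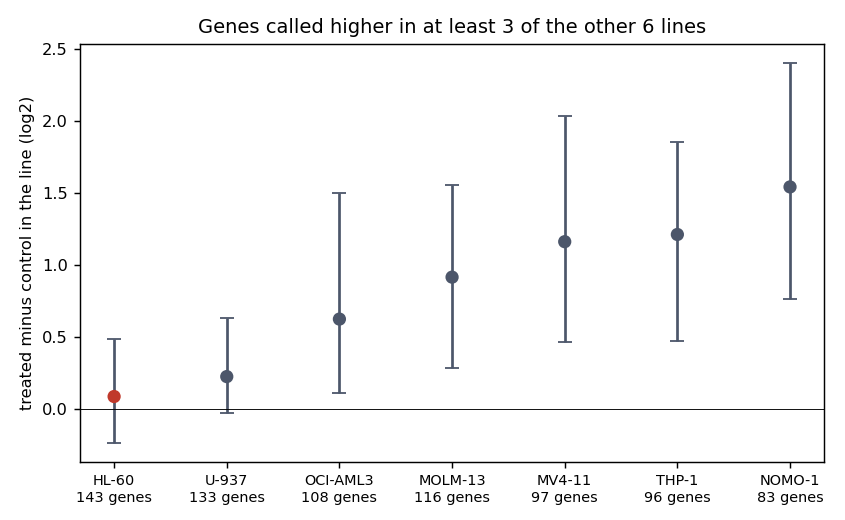
Treated minus control difference (log2) in each line for genes called higher in at least 3 of the 6 lines other than the one plotted; points are medians over genes, bars run between the quartiles, and the number of genes is given under each line. HL-60 has the lowest median, 0.086, and its quartiles of -0.24 and 0.48 lie on either side of 0.

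Single genes of that group ranged widely in HL-60. At the upper end, S100A9, a calcium-binding protein of maturing myeloid cells, had 5.30 and 4.69 in treated and 4.39 and 3.74 in control cells, a difference of 0.93 that was under the call threshold (other lines 1.34 on average). CLEC12A, a myeloid lectin receptor called higher in 5 other lines, differed by 0.78 in HL-60 against a mean of 1.79 in the other lines. At the lower end, LYZ, the lysozyme of granulocytes and monocytes, differed by -0.57 (0.26 without control replicate 1) and SERPINB10 by -0.89, neither of them called. SGK1, called higher in all 6 other lines, had 2.16 and 3.06 in treated and 2.79 and 2.74 in control HL-60 cells, and the groups overlapped.

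The responses of the lines were then set against each other with limma over all 28 arrays, at a Benjamini-Hochberg adjusted p under 0.05. The HL-60 response was higher than the mean response of the other 6 lines for 3 genes (0.0170%) and lower for 19 (0.107%), and once same-numbered arrays were blocked for 53 and 139. These counts hold for these 7 lines only: with the 7 line differences as the samples, 0 genes passed in limma and 857 (4.85%) had an unadjusted p under 0.05. Of the 22 genes (0.124%), 11 had an HL-60 difference smaller than 0.5 in size and 5 were called in HL-60. Without control replicate 2 of HL-60 the counts were 0 and 2, and without treated replicate 2 they were 2 and 9.

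SOCS2, a suppressor of JAK-STAT signalling, differed by 0.54 in HL-60 and by -4.54 in THP-1 and -3.61 in NOMO-1. The HL-60 difference was not called, and ran from 0.14 without control replicate 2 to 0.94 without control replicate 1. The SOCS2 response in HL-60 lay 2.09 ± 0.29 (SE) above the mean of the other lines (limma adjusted p = 0.00313). AK5 was 1.32 ± 0.24 (0.0277) and KLLN 1.56 ± 0.31 (0.0446) above that mean, and both were called higher in HL-60 itself, although KLLN was not called there without control replicate 1 (0.96) or treated replicate 2 (0.64). In the other direction, SERPINA1, the inhibitor of neutrophil elastase, differed by -0.38 in HL-60 and by 1.92 on average in the other lines, a gap of -2.30 ± 0.30 (0.00313). SGK1 followed with -2.27 ± 0.32 (0.0032), CD209, a lectin of dendritic cells and macrophages, with -2.10 ± 0.31 (0.00551), and SERPINB10 with -2.21 ± 0.34 (0.00564). DEFA1 and DEFA3, near-identical copies whose signals cannot be told apart, had gaps of -2.29 and -2.21, and their differences in HL-60 were -0.48 and -0.43.

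Against U-937, the HL-60 response was higher for 1 gene (0.00565%) and lower for 4 (0.0226%). PRTN3 fell in HL-60 by 1.31 and its difference was 2.65 in U-937, a gap of -3.96 ± 0.40 (SE, adjusted p = 3.95e-05). LYZ differed by -0.57 in HL-60 and 4.05 in U-937 (gap -4.63 ± 0.58, 0.000626), CHI3L1, a chitinase-like protein of neutrophil granules and macrophages, by -0.38 and 2.55 (gap -2.92 ± 0.35, 0.000337), and PLAC8 by -0.52 and 2.03 (gap -2.55 ± 0.41, 0.0165). The LYZ difference in HL-60 had no stable sign, with -1.40 without control replicate 2 and 0.26 without control replicate 1. DMWD was the gene whose response was higher in HL-60, with a gap of 2.28 ± 0.40 (0.045). It was not called in HL-60 itself, where its difference was 0.41 without control replicate 2 and 0.42 without treated replicate 2. Without control replicate 1 or treated replicate 1 that difference was 1.29 and 1.27. In HL-60 the PLAC8 signals were 9.54 and 9.35 in treated and 10.004 and 9.92 in control cells, with groups that did not overlap.

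Against OCI-AML3, the HL-60 response was higher for 1 gene (0.00565%) and lower for 31 (0.175%), and with the block for 65 and 194. Interferon-stimulated genes led the lower set: 8 of the 38 measured were among the 31, namely MX1, OAS1, OAS2, OAS3, IFI6, IFIT1, IFIT2 and IFIT3, of which OAS2, OAS3, IFIT1 and IFIT2 were named after their values were seen. MX1 had 3.48 and 3.55 in treated and 4.12 and 4.11 in control HL-60 cells, and its difference was -0.60 in HL-60 and 5.58 in OCI-AML3 (gap -6.18 ± 0.49, SE, adjusted p = 3.09e-07). OAS1 differed by -0.011 in HL-60 against 4.54 in OCI-AML3, and IGFBP3, which binds insulin-like growth factors, by 0.53 against 5.12. IGF2BP2, an RNA-binding protein and MLL fusion target, was the gene higher in this comparison, with a difference of -0.45 in HL-60 and -2.81 in OCI-AML3 (gap 2.37 ± 0.37, 0.00428). These 3 comparisons share the HL-60 arrays, so a gene that appears in several of them, such as PRTN3 or CHI3L1, is not separate evidence each time.

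**Figure D4:**
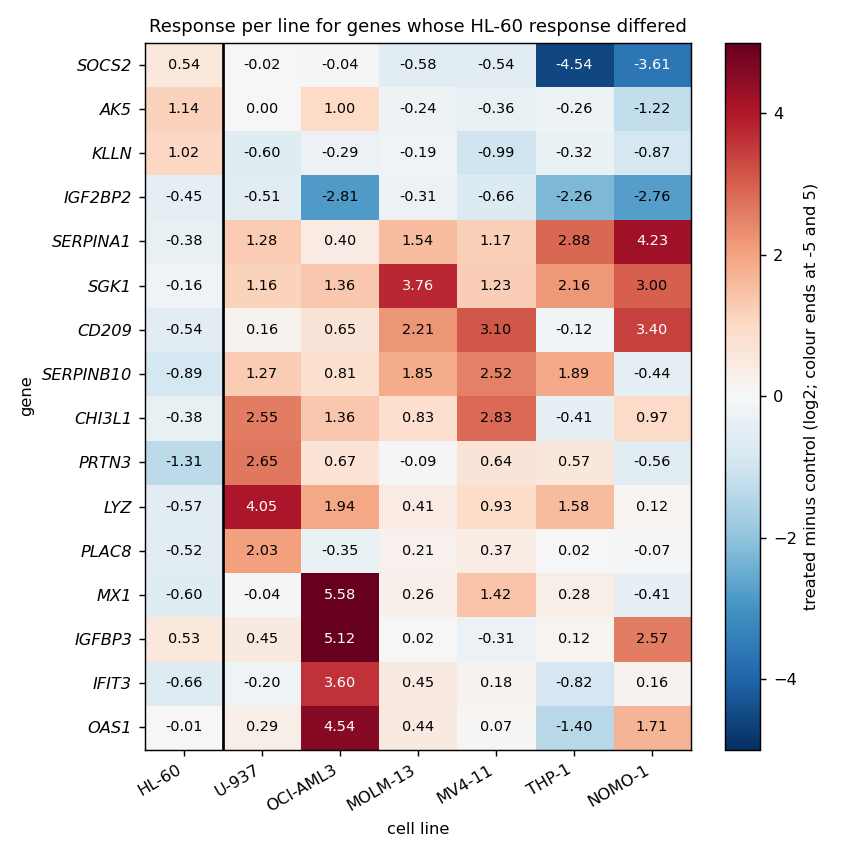
Treated minus control difference (log2, printed in each cell and coloured from blue, lower, to red, higher) for 16 genes whose HL-60 response differed from the mean of the other lines, from U-937 or from OCI-AML3, with HL-60 in the left column. The HL-60 column stays between -1.31 (PRTN3) and 1.14 (AK5), while single other lines reach 5.58 (MX1 in OCI-AML3) and -4.54 (SOCS2 in THP-1).

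Calls were few in gene lists of known function, as they were over all genes, so a short list would mostly hold 0 calls. Of 771 measured members of 38 lists, 4 were called higher (0.519%), namely CD38, EPX, HLA-DRA and MS4A6A, and 3 lower (0.389%), namely CYP26A1, PRTN3 and TLR2, against 0.260% and 0.175% of all genes. Genes of the primary granule made up the list with the lowest median among those for myeloid cells, -0.20 over 18 measured, with 12 below 0 and PRTN3 as the called member. Another 6 members were above 0, the highest at 0.71, and none of them was called. RNASE2, a ribonuclease of granulocytes, had 9.32 and 9.66 in treated and 9.94 and 10.14 in control cells (difference -0.55), AZU1 differed by -0.67 (-0.079 without treated replicate 1) and DEFA4 by -0.56, none of them called, and MPO by -0.21 with groups that overlapped. The mean signal of this list was 7.34 and 7.46 on treated against 7.59 and 7.70 on control arrays.

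Of 47 monocyte and macrophage genes, MS4A6A rose, TLR2 fell and 45 were not called, with a median of 0.13 and 29 above 0. CD163, a scavenger receptor of macrophages, had 5.41 and 5.19 in treated and 4.70 and 4.20 in control cells, a difference of 0.85 that missed the call. Among 31 secondary granule and maturation genes 0 were called by limma, with 1 (S100A9) at an unadjusted p under 0.05, or 3 with the replicate block, and the median was -0.048, with CYBA, a subunit of the phagocyte oxidase, at 0.81. HLA-DRA was the called member of 12 MHC class II genes, of which 9 were below 0. CD74, the invariant chain, had 5.75 and 6.13 in treated and 5.05 and 5.00 in control cells (0.92, not called), whereas HLA-DOB differed by -0.81. In the mean of the other 6 lines the medians of these lists were 0.34 (primary granule), 0.74 (monocyte and macrophage), 0.68 (maturation) and 0.77 (MHC class II).

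Of 46 DNA replication, 37 mitosis and 29 MYC and ribosome biogenesis genes, 0 were called by limma and 0 had an unadjusted p under 0.05. Over all genes 0.435% were called and 1.45% had such a p, so counts of 0 say little about lists of this length. The medians were -0.071, -0.000233 and 0.087 in HL-60 and -0.39, -0.27 and -0.21 in the mean of the other lines. The same counts of 0 held for 28 cholesterol and fatty acid synthesis genes (median -0.051, and -0.37 in the other lines). With the replicate number as a block, 1 gene each of the DNA replication, mitosis and cholesterol lists had an unadjusted p under 0.05, against 4.40% of all genes. Of 14 retinoid response genes, CD38 rose, CYP26A1 fell and 12 were not called, with a median of 0.038 and 7 above and 7 below 0. EPX, the eosinophil peroxidase, had 5.51 and 4.48 in treated and 4.21 and 3.68 in control cells (1.04 ± 0.42), and was not called without treated replicate 1 (0.53) or control replicate 2 (0.78). The other 12 eosinophil, basophil and mast cell markers were not called and 9 of the 13 were below 0. Of the erythroid, megakaryocyte, B cell, T and NK cell, and fibroblast and epithelial markers 0 were called by limma, with 1 (HBD, 0.79) at an unadjusted p under 0.05, or 2 with the replicate block.

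**Figure D5:**
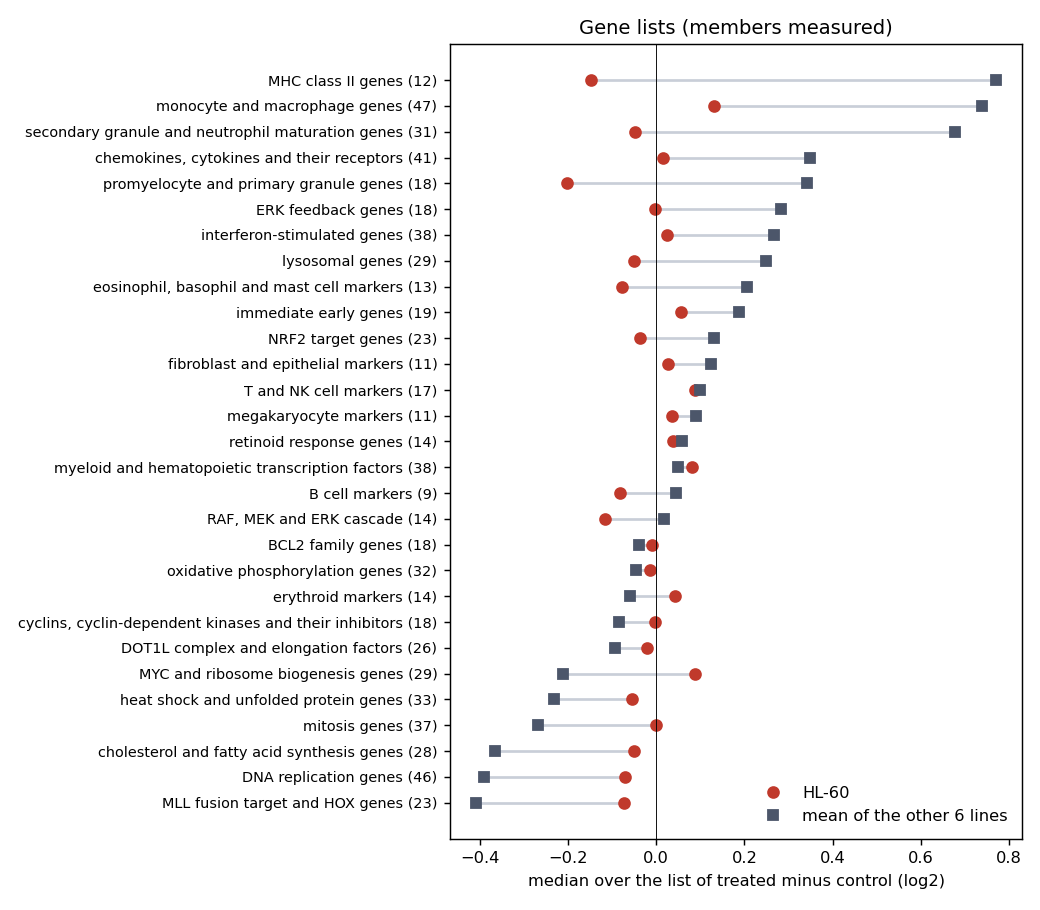
Median treated minus control difference (log2) over each gene list in HL-60 (red circles) and in the mean of the other 6 lines (grey squares), with the number of measured genes in brackets. The lists taken from the study are not plotted. The HL-60 medians plotted lie between -0.20 (primary granule) and 0.13 (monocyte and macrophage), and the other lines run from -0.41 (MLL fusion target and HOX genes) to 0.77 (MHC class II).

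Of the genes the study names in its text, 21 were measured here, and 0 were called by limma or had an unadjusted p under 0.05 in HL-60. With the replicate number as a block, 2 (CD84 and CD48) had such a p. Over all genes 0.435% were called, 1.45% had such a p and 4.40% had one with the block. MEIS1, the HOX cofactor, had 3.65 and 3.16 in treated and 3.67 and 4.23 in control cells, a difference of -0.54 ± 0.36 at low signal, where the other lines averaged -2.04. The gap between these responses was 1.49 ± 0.39 (SE, limma adjusted p = 0.236). The study reports that MEIS1 transcript was not detected in HL-60, and that H3K79me2 at MEIS1 was found in every line but this one. The HL-60 difference is therefore not read as a weaker response of a transcribed gene. The study reports CD14 and CD11b as changed over time, and CDK6 as lowered, in all lines. It read these as proteins, whereas the values here are RNA at 8 days. CD14 and ITGAM, which encodes CD11b, differed by -0.12 and -0.34 with overlapping groups, and FLT3 by 0.090. Neither CD14 nor ITGAM had a stable sign: they were at -0.50 and -1.01 without treated replicate 1, and at 0.26 and 0.33 without treated replicate 2. MYC had 11.48 and 11.50 in treated and 11.68 and 11.52 in control cells, and CDK6 differed by -0.049 and DOT1L itself by -0.16. With all 4 HL-60 arrays, the largest differences among the genes the study names were in genes for surface proteins of leukocytes, CD84 (0.90), CD48 (0.83) and CD86 (0.67). Each of these depended on single arrays. CD84 and CD48 had differences above 1 without treated replicate 2 (1.35 and 1.46) or control replicate 1 (1.48 and 1.31). They fell to 0.32 and 0.35 without control replicate 2, and to 0.45 and 0.20 without treated replicate 1. CD86 was at 1.19 without treated replicate 2 and at 0.14 without treated replicate 1. HOXA9, BRAF and TNF were not analysed here. From the larger set of genes marked by H3K79me2, the study prints 127 selected for roles in cell proliferation and survival. The mark was read from chromatin data and not from these arrays. The 115 of these genes measured here had a median of 0.017, with 59 above and 56 below 0. Of them 0 were called by limma and 2 had an unadjusted p under 0.05, CDC34 (-0.81) and TP53BP2 (-0.82), or 5 with the replicate block. The shares over all genes to set these against are those given above for the genes named in the text.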

How the data were processed

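Total RNA of each sample was hybridized to a Clariom S array. The deposited values are log2 signals per probe set, and per the labels the authors made them with RMA in R 3.6.1 (submitters' processing notes), which corrects background, normalizes all arrays to one distribution and summarizes probes. Quantile normalization of this kind removes any shift shared by most genes. No source used here gives scan dates or batches.

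Of 27189 entries, 5741 controls and 3739 unnamed probe sets were left out. The other 17709 carry 1 gene symbol each, and averaging 20 genes with several probe sets gave 17687 genes, tested with no filter. Treated and control arrays were compared with limma 3.58.1 in R 4.3.3, on the 4 HL-60 arrays for the HL-60 response and on all 28 for differences between responses. Deviations of same-numbered treated and control arrays from their condition means correlated across genes at 0.421 in HL-60 and up to 0.635 in the other lines, over 0.1 in all 7, so the replicate numbers were taken to pair the samples and were used as a block in an alternative. The fit was tested on simulated data with independent noise and no pairing of arrays, so that test does not cover the pairing seen here.

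Genes named are the 15 largest called differences in each direction with groups that did not overlap, the genes the study names, up to 4 members of each list with the smallest p, the 8 genes with the smallest p in each direction of each comparison between lines, and genes called the same way in at least 3 other lines. Some were added after their values were seen: the primary granule markers, and those so described. The members and lists were chosen with earlier results of these data known. Alternatives were the block, the arrays fitted, a signal filter, unnamed probe sets, a variance trend, centring and leaving out each HL-60 array. Some genes are not reported here. Promoter windows are those of RefSeq (GRCh38.p14).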

Additional observations from a re-analysis of the deposited data

Results flagged for a closer look

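Each of the following differences between the HL-60 response and the response of other lines passed an adjusted threshold in limma over 28 arrays. Against the mean of the other 6 lines, SOCS2 (2.09, adjusted p = 0.00313), AK5 (1.32, 0.0277) and KLLN (1.56, 0.0446) were higher in HL-60. SERPINA1 (-2.30, 0.00313), SGK1 (-2.27, 0.0032), CD209 (-2.10, 0.00551), DEFA3 (-2.21, 0.00551), CHI3L1 (-1.73, 0.00551), PRTN3 (-1.95, 0.00564), SERPINB10 (-2.21, 0.00564) and DEFA1 (-2.29, 0.00865) were lower. Against U-937, DMWD was higher (2.28, 0.045), and PRTN3 (-3.96, 3.95e-05), CHI3L1 (-2.92, 0.000337), LYZ (-4.63, 0.000626) and PLAC8 (-2.55, 0.0165) were lower. Against OCI-AML3, IGF2BP2 was higher (2.37, 0.00428), and MX1 (-6.18, 3.09e-07), IGFBP3 (-4.59, 3.09e-07), IFIT3 (-4.26, 7.16e-06), IFI6 (-3.45, 1.55e-05), OAS1 (-4.55, 1.55e-05), SELENOP (-4.16, 3.29e-05), TLR3 (-2.63, 0.00249) and SAMD9L (-2.85, 0.00249) were lower. With 2 arrays per group, no group was large enough to look for a sample far from the rest.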

How the results depend on the processing

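The counts rest on 2 arrays per group, and single arrays moved them. Leaving out each HL-60 array in turn gave 123 to 456 genes called higher and 104 to 367 lower, 0 to 1 genes after adjustment and 227 to 994 at an unadjusted p under 0.05. A lone array is then assumed to vary like the other group. Without control replicate 2, 23 of the 46 and 12 of the 31 genes were called again, and without treated replicate 2, 24 and 13. With the pairing of arrays by replicate number as a block, all 46 and all 31 were called again (49 and 36 in all), 779 genes had an unadjusted p under 0.05 and 0 passed adjustment. With 28 arrays 664 genes had an unadjusted p under 0.05 and 1 passed adjustment, and with the block as well 1885 and 2. Among genes at or above the median signal 9 were called higher, 4 lower, and 55 had an unadjusted p under 0.05.

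Between lines, the block gave 53 and 139 genes higher and lower against the other 6 lines, 5 and 13 against U-937, and 65 and 194 against OCI-AML3. The signal filter gave 1 and 10 against the other lines and 4 and 15 against OCI-AML3, and the 7 line differences as samples gave 0 and 0. Leaving out HL-60 arrays gave 0 to 9 and 2 to 24 against the other lines, 0 to 2 and 3 to 5 against U-937, and 1 to 8 and 14 to 39 against OCI-AML3. The median of genes higher elsewhere was 0.0821 to 0.167 without single arrays and 0.21 (82 genes, 54 above 0) without NOMO-1, and that of genes lower elsewhere -0.179 to 0.159, with -0.0649 when chosen by adjusted p and -0.214 (2 genes) without NOMO-1. List members called higher numbered 8 to 27 and lower 5 to 13 without single arrays. The cause was not tested for any of these changes. Signal over background is not given in the values used here, so how far low signals limit the dim genes is unknown.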
